A study of Homo sapiens with 12 samples.

Results

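The integrated stress response and the glutathione response were followed here through 7 rows of a gene count table. The rows are DDIT3 with MARS1 and MBD6, its neighbours on the opposite strand, then TRIB3, SLC7A11 with SLC7A11-AS1, its neighbour on the opposite strand, and GCLM. They were chosen by name from 61255 rows. The RNA came from 3 engineered versions of Huh-7.5, a human cell line of hepatocellular carcinoma origin, each expressing the proximity-labelling peroxidase APEX2. In APEX-NES and APEX-NLS the enzyme carries, as these abbreviations are usually read, a signal for export from the nucleus or for import into it, and in APEX-G3BP1 it is joined to the stress granule protein G3BP1. Mock-treated cells of each line were compared with cells given sodium arsenite at 0.5 mM for 45 minutes, with 2 numbered replicates for each line and treatment and 12 libraries in all. All 12 libraries therefore express APEX2, and no unmodified Huh-7.5 cells are among them. The labels do not say whether a line is a clone, which promoter drives the construct, or whether replicates came from separate cultures, so p-values measure only the spread between these samples. The stated purpose was to follow RNA levels in these lines when the cells are stressed.

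In the integrated stress response, kinases that sense amino acid shortage, misfolded protein, viral RNA or oxidants phosphorylate the initiation factor eIF2, which lowers general translation and favours translation of the transcription factor ATF4. ATF4 pairs with C/EBP proteins on C/EBP-ATF elements of genes for amino acid uptake, amino acid synthesis and tRNA charging, and of DDIT3, which encodes the transcription factor CHOP. Arsenite binds thiols and depletes glutathione, and it also releases the transcription factor NRF2 from its inhibitor KEAP1. NRF2 acts through antioxidant response elements of genes such as GCLM, the regulatory subunit of the enzyme that makes the glutathione precursor, and SLC7A11, the transporter that brings in cystine for it.

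In GENCODE release 29, annotated on GRCh38, DDIT3 (ENSG00000175197) lies on the minus strand at chr12:57516588-57521737. MARS1 (ENSG00000166986), at chr12:57475445-57517569, and MBD6 (ENSG00000166987), at chr12:57520710-57530148, lie on the plus strand and meet DDIT3 at its end and at its start. Exons of MARS1 cover 355 bases, or 27.2%, of the exons of DDIT3, and exons of MBD6 cover 58 bases, or 4.44%. SLC7A11 (ENSG00000151012) lies on the minus strand at chr4:138164097-138242349, and the non-coding SLC7A11-AS1 (ENSG00000250033) on the plus strand at chr4:138057464-138178177, where its exons cover 865 bases, or 8.97%, of the exons of SLC7A11. TRIB3 (ENSG00000101255), on the plus strand at chr20:362835-397559, and GCLM (ENSG00000023909), on the minus strand at chr1:93885205-93909456, have no row of the table on the opposite strand of their exons. The strand setting of the authors' counting is not given in the sources used here, so reads of a gene and of its partner on the opposite strand cannot be told apart by row name.

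Promoter sequences were available for 5 of the 7 members in RefSeq on GRCh38.p14 and were searched on both strands for 3 motifs, the C/EBP-ATF element TGATGNAA, the antioxidant response element TGACNNNGC and the AP-1 site TGANTCA, which reads alike on both strands. An AP-1 site followed by GC can match the antioxidant response element as well. The window searched ran from 250 bases before to 50 bases after the start of the gene. The 3 promoters below are shown because each holds 1 of the 3 motifs, in capitals, before or at the start of a gene whose level is described next. They are read in the direction of the gene and stop 20 bases after its start.
DDIT3, chr12:57520495-57520764, minus strand: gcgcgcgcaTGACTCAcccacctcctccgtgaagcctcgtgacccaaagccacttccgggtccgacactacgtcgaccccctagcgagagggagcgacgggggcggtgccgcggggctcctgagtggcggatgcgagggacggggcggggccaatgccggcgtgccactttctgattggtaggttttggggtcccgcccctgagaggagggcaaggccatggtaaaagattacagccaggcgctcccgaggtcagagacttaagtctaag
MARS1, chr12:57487818-57488087, plus strand: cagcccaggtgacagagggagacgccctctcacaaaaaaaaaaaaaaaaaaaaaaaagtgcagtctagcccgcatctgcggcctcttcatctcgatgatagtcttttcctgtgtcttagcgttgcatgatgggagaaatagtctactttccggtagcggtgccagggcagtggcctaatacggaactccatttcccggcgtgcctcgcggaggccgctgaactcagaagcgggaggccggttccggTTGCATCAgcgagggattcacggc
GCLM, chr1:93909411-93909680, minus strand: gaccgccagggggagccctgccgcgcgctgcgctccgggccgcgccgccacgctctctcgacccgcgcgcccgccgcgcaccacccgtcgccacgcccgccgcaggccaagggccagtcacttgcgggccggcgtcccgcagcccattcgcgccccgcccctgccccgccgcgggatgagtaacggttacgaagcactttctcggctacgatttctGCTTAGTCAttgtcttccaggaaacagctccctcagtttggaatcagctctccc

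The AP-1 site of DDIT3 lay at bases -241 to -235 from the start of the gene, the C/EBP-ATF element of MARS1, on the minus strand of the window, at -4 to 4, and the antioxidant response element of GCLM, also on the minus strand, at -34 to -26. TRIB3 held an antioxidant response element match at 41 to 49, after the printed length, and MBD6 held none of the 3 motifs in its window. Among 27305 promoter windows of the same length, 3.67% held the C/EBP-ATF element, 13.6% the antioxidant response element and 7.76% the AP-1 site. These are matches of letters only. The RefSeq starts used lie inside the GENCODE spans given above, and the RefSeq table holds 2 entries for DDIT3 and 3 for TRIB3, of which 1 each was used.

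Library totals ranged from 1090308 to 1461067 counts. Levels are given in CPM, the usual scaling of the counts of a row to a common library total, here the library totals over the 13108 rows tested, scaled by the TMM method, and 3 counts, taken as the floor of what a library can show, were between 2.08 and 2.88 CPM. Of 13 hepatocyte marker rows, 4 were under 10 counts in every library and 2 were called higher after arsenite, with 199 to 339 counts summed over the 13 rows in mock and 271 to 434 in arsenite libraries. Leukocyte marker rows together held 2 to 7 counts per library, and endothelial marker rows 0 to 14. Of 6 fibroblast marker rows, 5 were under 10 counts in every library, and COL3A1 was called higher, at 9.73 CPM in mock and 40.8 CPM in arsenite libraries, with 6 to 16 and 41 to 74 counts summed over the list. The part of these markers in the results below was not tested, and in bulk RNA a change in the number of cells of a type and a change in RNA per cell cannot be told apart. Rows of some highly expressed genes were near the floor while the row on the opposite strand was full, and how often this held was not counted. MALAT1 held 16 to 37 counts per library and TALAM1 44233 to 81932, GAPDH 5 to 40 and ENSG00000269968 12070 to 22188, and FTH1 11 to 34 and BEST1 11497 to 18070, pairs that were picked with their values in view. Because of such strand pairs, each gene named here stands for its row in the table. Whether any row named here, MARS1 and DDIT3 included, holds reads of its own gene or of a gene on the opposite strand was not tested.

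MARS1, the methionyl-tRNA synthetase, was the member whose row rose most in counts after arsenite, and it rose in each of the 3 lines. In NES it was at 58.9 and 60.4 CPM in the mock libraries and at 196 and 171 CPM after arsenite. In NLS the corresponding levels were 76.9 and 69.5 CPM and then 154 and 154 CPM. In G3BP1 they were 95.1 and 71.6 CPM and then 183 and 197 CPM. Every arsenite library lay above every mock library, which held for 6.44% of the 13108 rows tested. Over the 3 lines the mock libraries averaged 72.1 ± 13.2 CPM and the arsenite libraries 175.8 ± 19.5 CPM (SD, n = 6 each), and the fitted fold was 2.45. The average log2 fold change was 1.29 (SE 0.082, edgeR's quasi-likelihood test with Benjamini-Hochberg adjustment, adjusted p = 3.6e-27), the 84th largest rise among 6521 rows with a mean of at least 20 CPM. By line it was 1.63 in NES (SE 0.134, edgeR adjusted p = 6.2e-22), 1.07 in NLS (SE 0.131, edgeR adjusted p = 2.4e-11) and 1.19 in G3BP1 (SE 0.132, edgeR adjusted p = 1.2e-13). Rows called higher in all 3 lines were 4.2% of those tested.

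**Figure D1:**
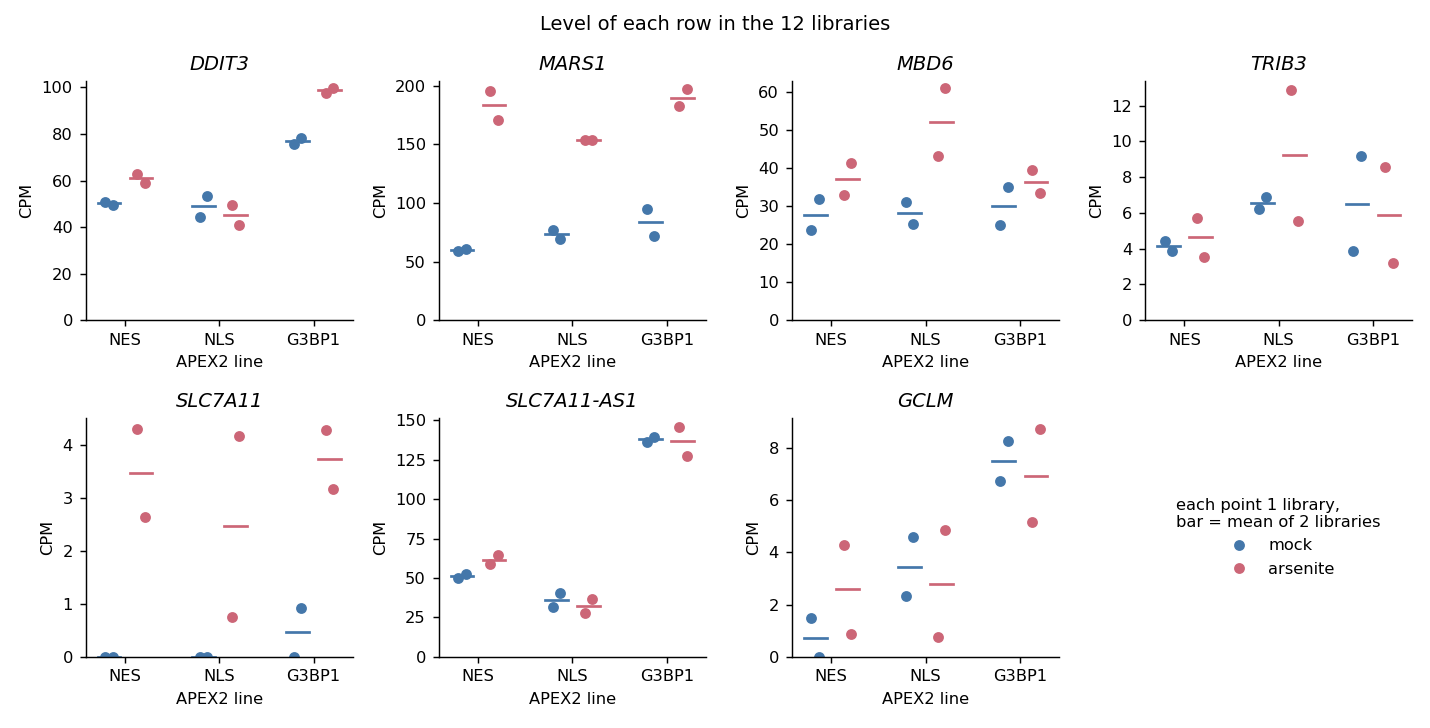
Level of each of the 7 rows in CPM (vertical axis, from 0) by APEX2 line, with 1 point per library and a bar at the mean of 2 libraries, mock in blue and arsenite in red. MARS1 separates by treatment in every line (72.1 CPM in mock and 175.8 CPM in arsenite libraries on average), whereas SLC7A11-AS1 separates by line, at 138.0 CPM in G3BP1 mock against 51.4 CPM in NES mock and 36.2 CPM in NLS mock libraries.

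DDIT3, which encodes CHOP and shares exonic sequence with MARS1 on the opposite strand, did not pass the test after arsenite. Its row was at 50.8 and 49.6 CPM in NES mock and at 63.0 and 59.0 CPM in NES arsenite libraries. In NLS the levels were 44.3 and 53.4 CPM in mock and 49.3 and 40.9 CPM after arsenite. In G3BP1 they were 75.9 and 78.1 CPM in mock and 97.7 and 99.8 CPM after arsenite. The arsenite libraries lay above the mock libraries in NES and in G3BP1, and the groups overlapped in NLS. The share of all rows that separate in this way within a line was not counted. Such separation, here and for the members below, is therefore given as a description only. The average log2 fold change was 0.20 (SE 0.107, edgeR adjusted p = 0.139), with 0.28 in NES (SE 0.185, edgeR adjusted p = 0.299), -0.12 in NLS (SE 0.194, edgeR adjusted p = 0.734) and 0.36 in G3BP1 (SE 0.165, edgeR adjusted p = 0.128). Without the second NLS arsenite library the average passed the threshold, at 0.27 (edgeR adjusted p = 0.0456).

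MBD6, a methyl-CpG-binding domain protein whose gene begins within the span of DDIT3, rose on average over the lines. Its row was at 23.6 and 31.8 CPM in NES mock and 32.9 and 41.4 CPM in NES arsenite libraries. In NLS the levels were 31.1 and 25.2 CPM in mock and 43.2 and 61.0 CPM after arsenite. In G3BP1 they were 25.0 and 34.9 CPM in mock and 39.4 and 33.3 CPM after arsenite. Mock and arsenite libraries did not overlap in NES or in NLS but did in G3BP1. The average log2 fold change was 0.55 (SE 0.143, edgeR adjusted p = 0.00096), a fitted fold of 1.47. By line only the effect in NLS passed, at 0.90 (SE 0.226, edgeR adjusted p = 0.0017), whereas NES had 0.42 (SE 0.244, edgeR adjusted p = 0.241) and G3BP1 0.27 (SE 0.254, edgeR adjusted p = 0.528). The NLS call was lost without the second NLS mock library (0.74, edgeR adjusted p = 0.0652), without the second NLS arsenite library (0.62, edgeR adjusted p = 0.162) and in DESeq2 (0.89, DESeq2 adjusted p = 0.0712). The difference between lines did not pass either (edgeR adjusted p = 0.727).

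The rows at this locus were also set beside each other. Of the counts on DDIT3 and MARS1 together, 44.7% fell on DDIT3 in mock libraries (exact binomial 95% interval 41.5 to 47.9%) and 27.7% in arsenite libraries (25.7 to 29.8%), intervals that cover counting error only. With DDIT3 and MARS1 summed into 1 row, the average log2 fold change was 0.90 (SE 0.067, edgeR adjusted p = 1.5e-22), and with DDIT3 and MBD6 summed it was 0.34 (SE 0.083, edgeR adjusted p = 0.00058). ARHGAP9, whose exons overlap the start of MARS1 on the opposite strand, had 0.18 (SE 0.195, edgeR adjusted p = 0.490). DCTN2, a dynactin subunit that meets the end of MBD6, had -0.11 (SE 0.073, edgeR adjusted p = 0.262), and KIF5A, a kinesin heavy chain next to it, 0.15 (SE 0.069, edgeR adjusted p = 0.0751). KIF5A passed without the first NES mock library (0.18, edgeR adjusted p = 0.0484) and without the second G3BP1 mock library (0.18, edgeR adjusted p = 0.0486). The other nearest genes, GLI1, MIR6758 and ENSG00000285133, were too low to be tested.

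**Figure D2:**
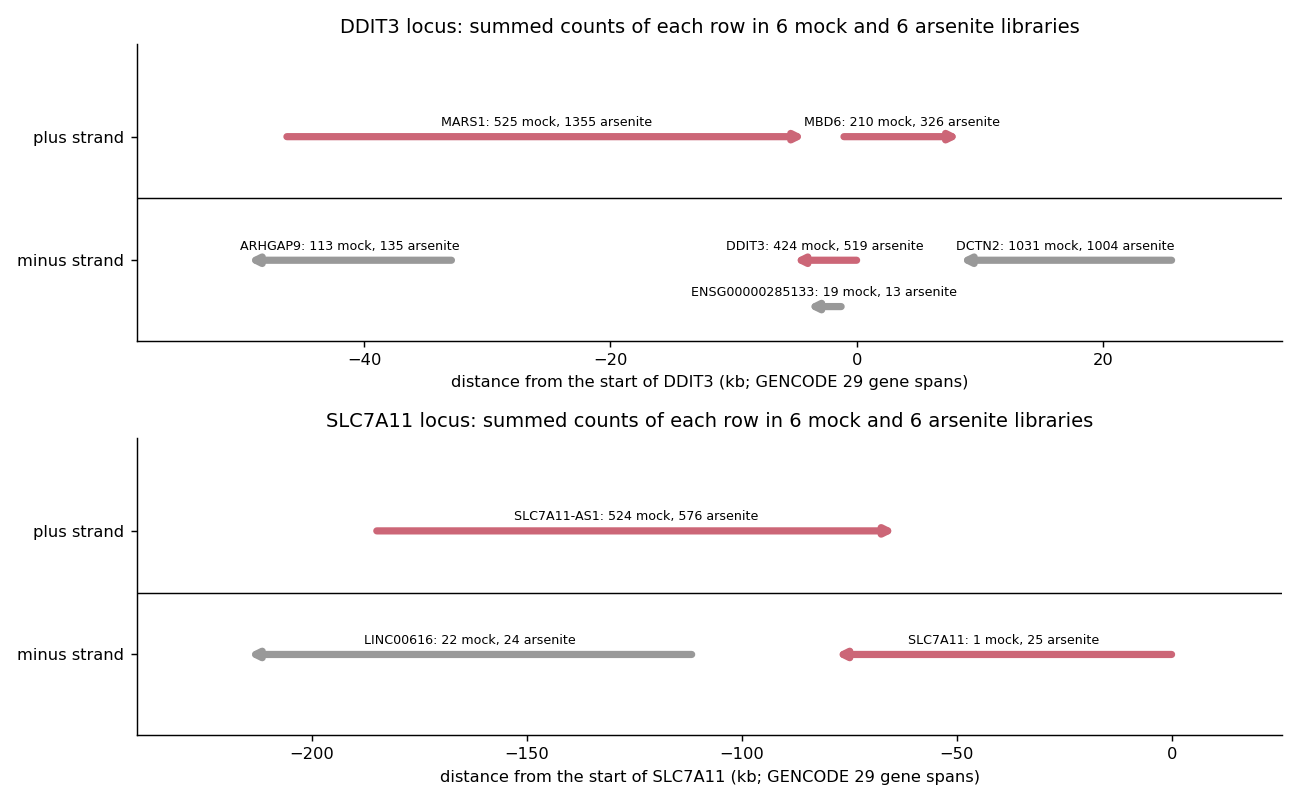
Gene spans around DDIT3 (upper panel) and SLC7A11 (lower panel) by strand, as distance in kb from the start of the named gene, with arrows in the direction of each gene, members in red and other rows in grey, and the counts of each row summed over 6 mock and 6 arsenite libraries. MARS1 went from 525 to 1355 counts and DDIT3 from 424 to 519, while SLC7A11 went from 1 to 25 beside SLC7A11-AS1 with 524 and 576.

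TRIB3, a pseudokinase that binds ATF4 and CHOP and restrains their activity, was near the floor. It held 6 and 5 counts in NES mock, 8 and 4 in NES arsenite, 8 and 9 in NLS mock, 17 and 8 in NLS arsenite, 4 and 10 in G3BP1 mock and 10 and 4 in G3BP1 arsenite libraries. Mock and arsenite libraries overlapped in every line. The average log2 fold change was 0.19 (SE 0.333, edgeR adjusted p = 0.687). Without 1 library in turn it ranged from -0.07 to 0.40, and no change was detectable at these counts. RBCK1, a subunit of the linear ubiquitin ligase and the next gene to the right of TRIB3, was called higher at 0.55 (SE 0.134, edgeR adjusted p = 0.00041), and NRSN2, to its left, had -0.23 (SE 0.182, edgeR adjusted p = 0.327).

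SLC7A11, the light chain of the cystine and glutamate exchanger, was almost confined to arsenite libraries, at very low counts. All 4 NES and NLS mock libraries held 0 counts, and the G3BP1 mock libraries held 0 and 1. After arsenite, NES libraries held 6 and 3 counts, NLS libraries 1 and 6, and G3BP1 libraries 5 and 4. Arsenite libraries lay above mock libraries within each line, although in CPM the lowest arsenite library, at 0.758, lay below the G3BP1 mock library with 1 count, at 0.919. Each mock library was under the floor of 3 counts. In all, 1 count in mock faced 25 in arsenite libraries, a ratio of 23.9 per depth with an exact 95% counting interval of 3.91 to 980. The mean was 3.22 ± 1.38 CPM in arsenite and 0.153 ± 0.375 CPM in mock libraries (SD, n = 6 each; two-sided exact permutation test, unadjusted p = 0.0043, where the smallest p that this design allows is 0.0022). The row did not pass the filter on low counts. Fitted without a filter, it was called on average (edgeR adjusted p = 2.97e-05) and in NES (edgeR adjusted p = 0.0238), with adjusted p = 0.0953 in NLS and 0.27 in G3BP1 by the same edgeR fit.

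SLC7A11-AS1, the non-coding row opposite to SLC7A11, held most of the counts of that locus and was not called after arsenite. It was at 50.1 and 52.7 CPM in NES mock and 58.7 and 64.3 CPM in NES arsenite libraries. In NLS the levels were 31.8 and 40.5 CPM in mock and 28.0 and 36.7 CPM after arsenite. In G3BP1 they were 136 and 140 CPM in mock and 146 and 128 CPM after arsenite. Arsenite libraries lay above mock libraries in NES and overlapped them in the other lines, and the average log2 fold change was 0.04 (SE 0.101, edgeR adjusted p = 0.816). SLC7A11 took 0.19% of the counts on both rows in mock libraries (exact binomial 95% interval 0.0048 to 1.06%) and 4.16% in arsenite libraries (2.71 to 6.08%). Summed into 1 row, their log2 fold change was 0.10 (SE 0.100, edgeR adjusted p = 0.460). LINC00616, a further row on the minus strand of SLC7A11-AS1, had between 0 and 7.13 CPM and was too low to be tested.

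GCLM, the regulatory subunit of glutamate-cysteine ligase, was at or near the floor in NES and NLS. It held 2 and 0 counts in NES mock, 6 and 1 in NES arsenite, 3 and 6 in NLS mock, 1 and 7 in NLS arsenite, 7 and 9 in G3BP1 mock and 6 and 11 in G3BP1 arsenite libraries. Mock and arsenite libraries overlapped in each line, and the average log2 fold change was 0.14 (SE 0.437, edgeR adjusted p = 0.836). No arsenite change was detectable at these counts. Its neighbours DNTTIP2 and CHCHD2P5 were too low to be tested.

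**Figure D3:**
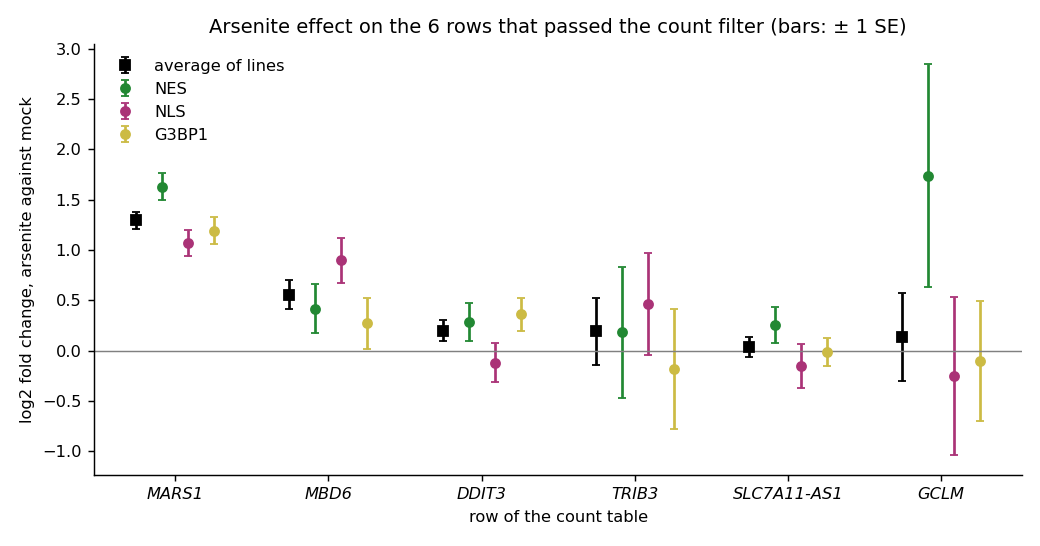
Log2 fold change of arsenite against mock for the 6 rows that passed the count filter, on average (black squares) and in each line (coloured points), with bars of 1 SE. MARS1 lies between 1.07 and 1.63 in the 3 lines, and the bars of the low rows TRIB3 and GCLM (average SE 0.333 and 0.437) are several times as wide as that of MARS1 (0.082).

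Of the 6 members that passed the filter, MARS1 and MBD6 were called higher on average and none lower, with all 6 estimates above 0, as were 48.9% of those of all rows. Of all rows tested, 19.4% were called higher and 18.6% lower, 38% in all. In NES, MARS1 was called higher, as were 10.9% of rows. In NLS, MARS1 and MBD6 were, as were 9.67% of rows. In G3BP1, MARS1 was, as were 9.22% of rows. The arsenite effect differed between lines for none of the 6 members in edgeR, against 24 of 13108 rows, or 0.183%. With MARS1, whose effects spanned 0.55 on the log2 scale, 1 member had an unadjusted p under 0.05 (0.0125, edgeR adjusted p = 0.397). Of all rows, 1097, or 8.37%, had an unadjusted edgeR p under 0.05. DESeq2 called 0 rows, with 216, or 1.65%, at an unadjusted p under 0.05 and no member among them.

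The baseline level among the lines was compared in the mock libraries. SLC7A11-AS1 differed most clearly, at 51.4 ± 1.83 CPM in NES, 36.2 ± 6.10 CPM in NLS and 138.0 ± 2.25 CPM in G3BP1 mock libraries (SD, n = 2 each). Its log2 levels spanned 1.93 over the lines (edgeR adjusted p = 9.8e-22), with G3BP1 above NES by 1.42 (SE 0.160, edgeR adjusted p = 1.3e-13) and above NLS by 1.93 (SE 0.172, edgeR adjusted p = 5.4e-20). NES and NLS, its neighbours in order, differed by -0.50 (NLS minus NES, SE 0.200, edgeR adjusted p = 0.119), which did not pass. The libraries of G3BP1 did not overlap those of the other lines in either treatment. The share of all rows that separate by line in this way was not counted, so this is a description only. Other rows separated likewise, ENSG00000260466 among them.

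DDIT3 was also higher in the G3BP1 line, where mock libraries held 77.0 ± 1.53 CPM, compared with 50.2 ± 0.879 CPM in the NES line and 48.9 ± 6.50 CPM in the NLS line (SD, n = 2 each). The difference was 0.62 from NES (SE 0.183, edgeR adjusted p = 0.0125) and 0.65 from NLS (SE 0.184, edgeR adjusted p = 0.0041), and NLS minus NES was -0.04 (SE 0.192, edgeR adjusted p = 0.946). The joint test of the 3 lines gave an edgeR adjusted p = 0.0037. It was lost without the second G3BP1 mock library (edgeR adjusted p = 0.0932) and in DESeq2 (DESeq2 adjusted p = 0.0786). GCLM went from 0.737 ± 1.04 CPM in NES through 3.46 ± 1.59 CPM in NLS to 7.50 ± 1.09 CPM in G3BP1 mock libraries (SD, n = 2 each), on 2, 9 and 16 counts. GCLM passed the count filter only through 2 libraries, 1 mock and 1 arsenite, both of the G3BP1 line, so a test among the lines that rests on this filter is no support for a higher level there, and these levels are given as a description.

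MARS1 was at 59.7 ± 1.06 CPM in NES, 73.2 ± 5.23 CPM in NLS and 83.4 ± 16.6 CPM in G3BP1 mock libraries (SD, n = 2 each). Its joint test did not pass (edgeR adjusted p = 0.0565), although G3BP1 against NES did (0.48, SE 0.162, edgeR adjusted p = 0.0357). The joint test passed without the second G3BP1 mock library (0.67, edgeR adjusted p = 0.0246) and with DESeq2 size factors (edgeR adjusted p = 0.0494). MBD6 (edgeR adjusted p = 0.939) and TRIB3 (edgeR adjusted p = 0.666) did not differ detectably among the lines. Leaving GCLM aside, SLC7A11-AS1 and DDIT3 were called in the joint test, where 22.5% of rows tested were. G3BP1 minus NES was called higher for SLC7A11-AS1, DDIT3 and MARS1, where 6.32% of rows were, G3BP1 minus NLS for SLC7A11-AS1 and DDIT3, where 11.2% were, and NLS minus NES for none by edgeR, where 6.92% were called in either direction and SLC7A11-AS1 alone of the members had an unadjusted p under 0.05 (0.0126).

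Levels of different rows were compared only per kb of exon of the gene that names the row. Whether the reads of a row came from that gene was not tested, so the order is one of rows and not of genes. Averaged over the 3 lines, in mock libraries DDIT3 was highest, at 44.9 CPM per kb, followed by SLC7A11-AS1 at 12.2, MARS1 at 10.3, MBD6 at 5.06, TRIB3 at 1.67, GCLM at 0.719 and SLC7A11 at 0.0159 CPM per kb. In arsenite libraries DDIT3 was at 52.2 CPM per kb, MARS1 at 25.0, SLC7A11-AS1 at 12.5, MBD6 at 7.42, TRIB3 at 1.91, GCLM at 0.758 and SLC7A11 at 0.334 CPM per kb. The order of SLC7A11-AS1 and MARS1 differed between lines. In mock libraries SLC7A11-AS1 was above MARS1 in G3BP1 (22.4 and 11.9 CPM per kb), and below it in NES (8.34 and 8.49) and NLS (5.87 and 10.4). In arsenite libraries MARS1 had the higher mean in each line, but SLC7A11-AS1 in G3BP1 (22.2 CPM per kb) was above MARS1 in NLS (21.9), so over all libraries their order is not beyond the spread in either treatment.

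Rows with the most similar pattern over the 12 libraries were sought among rows with a mean of at least 20 CPM, by Pearson's r of log2 CPM, given as a description. These r values rest on the same 12 libraries and their depths, and 6520 or 6521 rows were searched for each member. MARS1 was closest to H2BC6, HDAC1 and DSTN (r from 0.980 to 0.988), whose own average log2 fold changes were 1.67, 1.16 and 1.53. DDIT3 was closest to FAM13C, MARCHF7 and ADGRF5 (r from 0.964 to 0.971). SLC7A11-AS1 was closest to NOP14-AS1, ENSG00000248254 and ENSG00000255959 (r from 0.975 to 0.982). MBD6 was closest to TGIF1 (r = 0.899), FER1L5 and GNPDA1. For the low rows TRIB3 and GCLM the highest r was 0.839, with LINC00960, and 0.876, with CSGALNACT1.

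The wider pathways were described with 3 lists, of which only own rows and then rows on the opposite strand are counted, against the 19.4% of all rows called higher and 18.6% called lower. A gene said to rise or fall in these lists stands for its row, and whether the reads came from that gene was not tested. Of 40 integrated stress response genes, the rows of 18 passed the filter, and 3 rose, 4 fell and 11 were not called. Their median log2 fold change was 0.20, where all rows tested had -0.01. ATF4, the transcription factor at the centre of the response, rose from 29 to 118 counts summed over 6 libraries (log2 fold change 1.93, SE 0.284, edgeR adjusted p = 1.3e-08). CEBPG, a C/EBP partner of ATF4, rose from 6 to 64 counts (3.21, SE 0.502, edgeR adjusted p = 7.6e-08), with 0 to 2 counts in each mock library and 4 to 15 in each arsenite library. Among the lines, the CEBPG estimate was lowest for G3BP1 at 0.94, on 2 and 2 mock and 4 and 5 arsenite counts. The larger estimates were those of the NES line (4.60) and the NLS line (4.30). SHMT2, the mitochondrial serine hydroxymethyltransferase, rose from 26 to 85 counts (1.61, SE 0.323, edgeR adjusted p = 2.2e-05). These 3 rows passed the count filter only through arsenite libraries, with at most 8 counts in a mock library, and could therefore enter mainly as rises. Neither their number nor the median of the list, which includes them, is therefore support for a direction of the list. Of all 13108 rows tested, 522 passed only through arsenite libraries and 585 only through mock libraries. Fitted without a filter, their log2 fold changes were 1.91 for ATF4 (edgeR adjusted p = 6.7e-10), 3.20 for CEBPG (edgeR adjusted p = 9.6e-11) and 1.60 for SHMT2 (edgeR adjusted p = 7.5e-06).

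PCK2, the mitochondrial form of phosphoenolpyruvate carboxykinase, fell by 0.64 on the log2 scale, from 183 to 122 counts (SE 0.176, edgeR adjusted p = 0.0019). SLC1A4, a neutral amino acid transporter, fell by 0.34, from 697 to 576 counts (SE 0.091, edgeR adjusted p = 0.0018). ATF5, a transcription factor whose translation the response favours, fell by 0.23 (SE 0.076, edgeR adjusted p = 0.0107), which was lost without the second NES mock library (edgeR adjusted p = 0.0932) or the second NES arsenite library (edgeR adjusted p = 0.0675). MTHFD2, a mitochondrial folate enzyme, fell by 0.37 (SE 0.149, edgeR adjusted p = 0.0382), which was lost in 6 of the 12 fits that left out 1 library, with an edgeR adjusted p up to 0.186 without the second NLS arsenite library. The number of list members called lower then ranged from 2 to 4. DESeq2 called 2 of the 4 lower. DDIT3 and TRIB3, which the list holds, were not called, and SLC7A11 did not pass the filter.

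On the opposite strand of integrated stress response genes lay 23 rows, of which 22 passed, 10 were called higher, 1 lower and 11 not called, with a median of 0.28. The largest rises were MARS1, MBD6, NDUFA4L2 and SLC4A5, the first 2 opposite DDIT3 and given above. NDUFA4L2, a paralogue of a mitochondrial respiratory subunit, lies opposite SHMT2 (1.17, SE 0.172, edgeR adjusted p = 1.2e-08). SLC4A5, a bicarbonate transporter, lies opposite MTHFD2 (0.45, SE 0.099, edgeR adjusted p = 9.9e-05). By line SLC4A5 had 0.22 in NES, 0.21 in NLS and 0.72 in G3BP1. ENSG00000260466, opposite the amino acid transporter gene SLC7A5, was the row called lower (-0.16, SE 0.065, edgeR adjusted p = 0.0458), and 7 of the 12 fits that left out 1 library did not call it, with an edgeR adjusted p up to 0.187 without the first NES arsenite library.

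**Figure D4:**
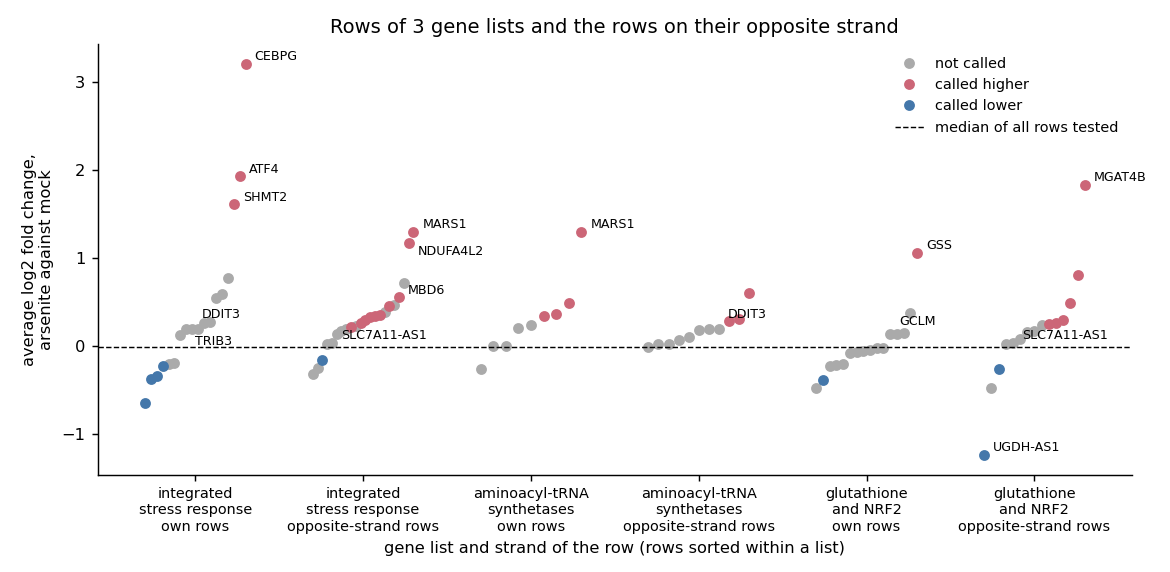
Average log2 fold change of arsenite against mock (vertical axis) for the rows of 3 gene lists that passed the count filter and for the rows on their opposite strand, sorted within a list, with called rows in red (higher) and blue (lower), other rows in grey and the median of all rows tested dashed. MARS1, at 1.29, is both a synthetase and the row opposite DDIT3, and CEBPG, at 3.21, ATF4 and SHMT2, which passed the filter only through arsenite libraries, lie highest among the integrated stress response genes' own rows.

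Of 20 cytosolic aminoacyl-tRNA synthetases, which charge tRNAs with amino acids, 9 passed the filter, 4 rose and 5 were not called, with a median of 0.24. MARS1 lay highest, followed by YARS1 (0.49, SE 0.174, edgeR adjusted p = 0.018), KARS1 (0.36, SE 0.106, edgeR adjusted p = 0.0037) and HARS1 (0.35, SE 0.145, edgeR adjusted p = 0.0489), the synthetases for tyrosine, lysine and histidine. Leaving out 1 library at a time ended the call of HARS1 in 9 of 12 fits, with an edgeR adjusted p up to 0.161 without the first NLS arsenite library, and that of YARS1 without the second NLS mock (edgeR adjusted p = 0.118) or first NLS arsenite library (edgeR adjusted p = 0.068), and DESeq2 called 2 of the 4. Opposite these genes, 11 of 14 rows passed and 3 were called higher, among them S100PBP opposite YARS1 (0.60, edgeR adjusted p = 0.0153) and WDR55 opposite HARS1 (0.28, edgeR adjusted p = 0.0068). S100PBP lost its call in DESeq2 (0.62, DESeq2 adjusted p = 0.0699), and both rows lost their call without 1 or 2 libraries. For S100PBP these were the second NES mock (edgeR adjusted p = 0.0585) and first G3BP1 mock library (edgeR adjusted p = 0.0725), and for WDR55 the second NLS mock library (edgeR adjusted p = 0.0614).

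Of 40 glutathione and NRF2 genes, 16 passed the filter, with 1 higher, 1 lower and 14 not called, and a median of -0.05. GSS, glutathione synthetase, rose from 114 to 250 counts summed over 6 libraries (1.06, SE 0.170, edgeR adjusted p = 1.5e-07). GPX2, a glutathione peroxidase, fell by 0.39 (SE 0.152, edgeR adjusted p = 0.0342), which was lost in 5 of the 12 fits that left out 1 library, with an edgeR adjusted p up to 0.132 without the first NLS arsenite library, and in DESeq2 (DESeq2 adjusted p = 0.122). On the opposite strand all 15 rows passed, 6 were called higher, 2 lower and 7 not called, with a median of 0.17. MGAT4B, a Golgi glycosyltransferase, opposite the autophagy receptor gene SQSTM1, rose by the most (1.83, SE 0.168, edgeR adjusted p = 4.4e-17), and MRNIP, also opposite SQSTM1, had 0.29 (SE 0.038, edgeR adjusted p = 4.3e-10). TMEM63A, an ion channel gene opposite EPHX1, had 0.80 (SE 0.093, edgeR adjusted p = 2.4e-12), and ENSG00000264769, opposite MAFG, 0.49 (SE 0.141, edgeR adjusted p = 0.0033). UGDH-AS1 fell by 1.24 (SE 0.220, edgeR adjusted p = 1.7e-06). GRIK1, a glutamate receptor subunit opposite BACH1, fell by 0.26 (SE 0.108, edgeR adjusted p = 0.0458). By line GRIK1 had -0.09 in NES, -0.69 in NLS and -0.03 in G3BP1. Its call was lost in 6 of the 12 fits that left out 1 library, and its average was -0.15 without the second NLS arsenite library.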

How the data were processed

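Total RNA of 12 Huh-7.5 libraries was sequenced after ribosomal RNA depletion with a kit that keeps strand, per the labels' protocols. The authors deposited raw gene counts in 1 table, whole numbers whose column totals differ. Per the submitters' processing notes, Trim Galore, Subread, featureCounts, edgeR and GRCh38.p13 were used, without versions of the tools or their roles. The strand setting and gene annotation are not given in the sources used here. Another 4 columns carried names that fit no sample and stayed out of every step. Groups and replicate numbers came from the sample titles. Of 61255 rows, 57004 were matched to GENCODE release 29 by symbol or identifier.

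The counts as deposited were fitted with edgeR 4.0.16 in R 4.3.3 (TMM, filterByExpr with a minimum count of 10 and minimum total of 15, quasi-likelihood F test), and Benjamini-Hochberg adjustment ran over the 13108 rows left. A row was called at an adjusted p under 0.05. The average effect came from an additive model of line and treatment over all libraries (8 residual degrees of freedom), and effects by line, their difference and mock differences from 6 group means (6 residual degrees of freedom). Standard errors are the log2 fold change divided by the root of F. On simulated counts, 99.5% of 200 rows changed 2-fold were recovered for the average effect and 79.5% for the effect in NES, among 12427 rows. The changed rows were drawn only from rows with a higher average count than TRIB3, GCLM or SLC7A11. The recovery therefore does not cover rows as low as these. Library totals were 1090308 to 1461067 counts over all rows. CPM values and the floor of 3 counts, at 2.08 to 2.88 CPM, are relative to the TMM-scaled totals over the 13108 rows tested, and floors and intervals cover counting error only.

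Members and lists were chosen with earlier results of these data known. Named beside the members were the nearest genes, the rows on the opposite strand, up to 4 called rows with the largest and up to 4 with the smallest log2 fold change of each list, limited to rows averaging 1 CPM or more, and the 3 rows most like a member. 1 further row picked by this rule is left out here. The fibroblast and hepatocyte rows and 3 abundant strand pairs were named as checks. Replicates of each of the 6 groups differed beyond sampling noise (chi-square test over rows), with a chi-square per degree of freedom from 1.11 to 1.39. Each library counted as 1 sample, although this test cannot tell separate cultures from repeats of 1 culture. Alternatives were DESeq2 size factors, total counts, no filter, a filter at an average of 1 CPM, DESeq2 1.42.0 in place of edgeR, a replicate block, fits within a line or within mock libraries, and leaving out each library.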

Additional observations from a re-analysis of the deposited data

Results flagged for a closer look

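MBD6 in the second NLS arsenite library, at 60.97 CPM, stood apart from the other 5 arsenite libraries, with a gap of 0.633 of the range of the 6, just past the critical value of Dixon's test. Without that library the average MBD6 effect was still called, and the effect in NLS was not, as given above. SLC7A11 in the second G3BP1 mock library, at 0.919 CPM, was the only mock value of that row above 0 and rests on 1 count, so that the gap equals the whole range. Chance sets about 1 in 20 such groups apart.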

How the results depend on the processing

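MARS1 and MBD6 stayed called higher on average in all 19 alternatives run for each, with log2 fold changes of 1.23 to 1.35 and 0.43 to 0.65, and MARS1 stayed called in each line. DDIT3 passed on average in 1 of 19 alternatives, and its effect ranged from 0.16 to 0.27 without 1 library in turn. TRIB3, SLC7A11-AS1 and GCLM were not called on average in any alternative that could test them, and no called value changed sign. DESeq2 called fewer rows in all, 1003 in NES, 697 in NLS, 749 in G3BP1, 0 for the difference between lines and 1278 for baseline, where edgeR called 2658, 2334, 2146, 24 and 2945, and the cause was not tested. Leaving out 1 library, which leaves a lone sample assumed to vary like the other groups, gave 1747 to 2739 rows in NES, 1321 to 2413 in NLS and 1204 to 2195 in G3BP1. The count fell by over 1.5 times in NES without its first mock (1750) or first arsenite library (1747), in NLS without its first mock (1355), second mock (1398) or second arsenite library (1321), and in G3BP1 without its first mock (1204), second mock (1353) or second arsenite library (1387). With total counts in place of TMM, 2168 rows were higher and 2856 lower on average, against 2544 and 2442, and the median of all rows moved from -0.01 to -0.06. Without a filter the synthetases' own rows called higher were 2 rather than 4, and own glutathione rows called higher 2 and lower 0 rather than 1 each. With DESeq2, own rows called lower were 2 rather than 4 in the integrated stress response list and 0 rather than 1 in the glutathione list. Rows opposite these lists called lower were 0 rather than 1 and 1 rather than 2. Opposite rows called higher were 9 rather than 10 for the integrated stress response, 2 rather than 3 for the synthetases and 5 rather than 6 for the glutathione list.

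Replicate numbers were not used to pair the libraries. Deviations of same-numbered mock and arsenite libraries from their group means, over 6521 rows, had a Pearson's r of -0.049 for NES, -0.010 for NLS and 0.0058 for G3BP1. Counting error also lowers r, so these values cannot show whether the cultures were paired. With a replicate block common to all lines 4983 rows were called on average, MARS1 had 1.29 and MBD6 0.56, and no call of a member or named row changed. The low rows were measured with less precision, as the SE of the average log2 fold change was 0.333 for TRIB3 and 0.437 for GCLM, against 0.082 for MARS1. Why their counts were low was not tested.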
